A study of Arabidopsis thaliana with 16 samples.

Results

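The sant1234 quadruple mutant of Arabidopsis thaliana was compared with the wild type over all measured genes. The comparison used 4 of the 16 RNA-seq libraries of the series, chosen by their labels: 2 of sant1234, homozygous mutant in the 4 genes SANT1, SANT2, SANT3 and SANT4, and 2 of the wild type, Col-0. All plants were seedlings aged 14 days, raised on MS plates under long days (16 h light, 23 °C; 8 h dark, 22 °C), and the labels give no treatment. The 12 libraries of the other 6 mutants (hda6, hda19, mbd124, esant12, arid14 and rxt3, 2 each) entered the same fit and served as a further comparison. Whether replicate libraries were made from different plant pools is not stated in the labels, and p-values therefore measure only the spread between these samples.

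SANT domains are folds found in subunits of many chromatin-modifying complexes. The series is about RPD3-type deacetylase complexes, which take acetyl groups off histone tails, an activity generally linked to repression of transcription. In plant seedlings such complexes are known to act on genes of hormone, stress and flowering pathways.

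Levels are given as signal, the deposited read number of a gene after scaling between libraries, so that 100 stands for about 100 reads. Libraries held 19375969 and 19293114 reads in sant1234 and 19493628 and 19522197 in the wild type. Differences are sant1234 minus wild type on the log2(signal + 1) scale with the standard error (SE) of the fit, and a gene passed where limma's test gave a Benjamini-Hochberg adjusted p under 0.05 over 20846 tested genes. The annotation used names no gene SANT1 to SANT4, so the transcripts of the mutated genes could not be read as a check of the labels. In seedlings of this kind a lower level cannot be told apart from fewer cells of the type that expresses the gene. Photosynthesis genes, the defining transcripts of green tissue, summed to 2159894 and 2126640 in sant1234 and to 1845126 and 1784286 in the wild type. Root marker genes summed to 3555 and 3830 in sant1234 and to 2996 and 3285 in the wild type. Floral organ genes summed to 114 and 132 in sant1234 and to 70.6 and 65.9 in the wild type. Of 6 tested floral genes 2 were higher (33.3%, against 8.53% of all genes). SEP3 had 62.8 and 64.8 in sant1234 and 23.8 and 36.0 in the wild type (1.1, adjusted p = 0.0061; 0.81 and 0.072 without wild-type library 1). AP3 had 17.9 and 18.9 in sant1234 and 5.97 and 0.998 in the wild type (adjusted p = 0.03), lost without sant1234 library 1 (0.11), sant1234 library 2 (0.13) or wild-type library 2 (0.25), as adjusted p. Of 13 seed maturation genes 3 were tested, with sums of 290 and 394 in sant1234 and 81.4 and 184 in the wild type. Nearly all of that came from M17, which had 269 and 372 in sant1234 and 68.5 and 175 in the wild type and passed (adjusted p = 0.016), but 0 of the 3 passed without sant1234 library 2 or wild-type library 1, and CRU2, SESA3 and LEC1 were listed at 0 in these libraries. The part of any of these tissues in the results was not tested.

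In sant1234, 1779 genes were higher than in the wild type (8.53% of those tested) and 2355 were lower (11.3%). Together these were 4134 genes (19.8%), and in every one of them the 2 sant1234 libraries lay on one side of the 2 wild-type libraries. Over all tested genes this held for 29.2% upward and 32.5% downward. Most differences were small: 87.2% of the genes that passed differed by less than 2-fold, and their median size was 0.404 on the log2 scale. At a log2 difference of at least 1, 369 genes were higher (1.77%) and 160 lower (0.768%), so the large differences were mostly upward. Leaving out 1 of the 4 libraries left 867 to 1177 genes higher and 1280 to 1446 lower.

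**Figure D1:**
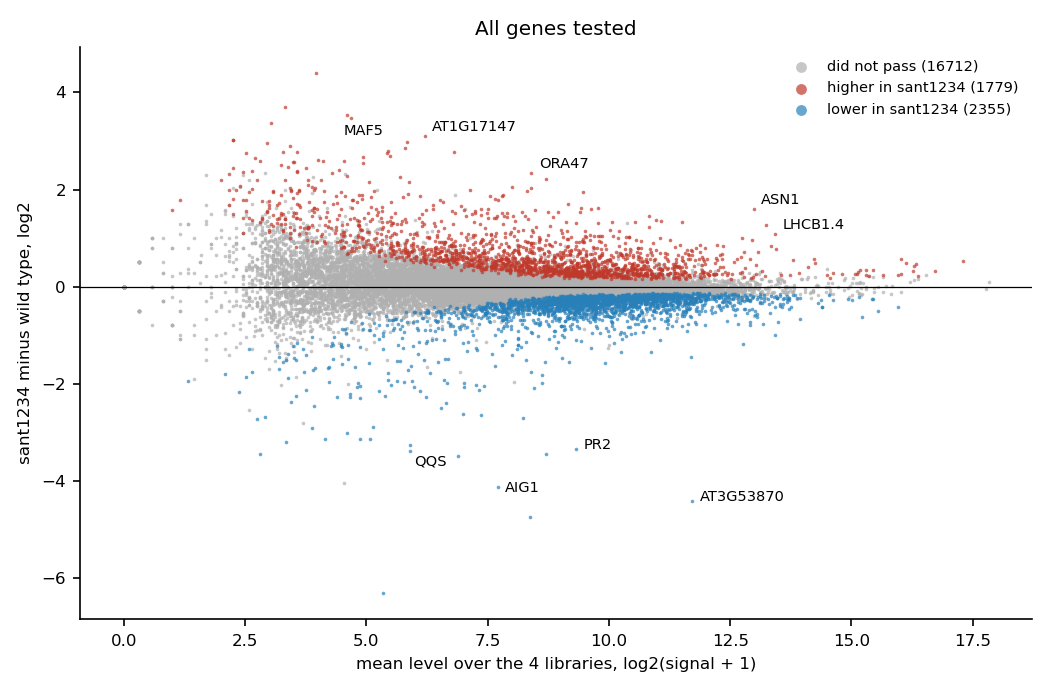
Difference between sant1234 and wild type (log2, vertical axis) against the mean level over the 4 libraries (log2(signal + 1), horizontal axis) for the 20846 genes tested. Red genes were higher in sant1234 (1779), blue genes lower (2355) and grey genes did not pass; AT3G53870 stands apart among abundant genes at -4.42.

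A second contrast set sant1234 against the mean of the other 6 mutants and used no wild-type library. It found 836 genes higher in sant1234 (4.01%) and 875 lower (4.2%). These counts fell to 92 higher and 63 lower without sant1234 library 1, and to 182 higher and 272 lower without sant1234 library 2. Of the 1779 genes higher than in the wild type, 385 were also higher than in the other mutants, 26 were lower and 1368 did not pass. Of the 2355 genes lower than in the wild type, 389 were also lower than in the other mutants, 45 were higher and 1921 did not pass. The sant1234 libraries enter both contrasts, so these counts are not independent of each other. The contrast is with a mean over 6 unlike mutants, so a gene that passed it can be as high or as low in 1 of them.

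The largest difference of an abundant gene was in AT3G53870, 1 of 3 genes for ribosomal protein S3, a protein of the small ribosomal subunit (chromosome 3, 19951424 to 19953018, RefSeq TAIR10.1). Its signal was 292 and 308 in sant1234, against 6289 and 6628 in the wild type. The sant1234 level was thus 4.64% of the wild-type level (log2 difference -4.42 ± 0.05, adjusted p = 5.2e-16). In the other 6 mutants its mean lay between 4566 and 6616, and sant1234 was also lower than these (-4.2, adjusted p = 2.5e-17). The low level was seen in no other genotype.

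The other S3 genes differed little. AT2G31610 had 4168 and 4128 in sant1234 and 4885 and 4994 in the wild type (-0.25 ± 0.05, adjusted p = 0.002). AT5G35530 had 3563 and 3675 in sant1234 and 4058 and 4177 in the wild type (-0.19 ± 0.05, adjusted p = 0.011), and without 1 library its adjusted p reached 0.088 (without sant1234 library 1, -0.16) and 0.081 (without wild-type library 2, -0.17). Neither gene rose. Per kb of transcript, AT3G53870 supplied 3.9% and 4.07% of the S3 signal in sant1234, against 43.0% and 43.7% in the wild type, and the 3 genes together stood at 50.6% of the wild-type level. Of the 1060 windows of 50 bases in its transcript, 1056 occur in no other annotated gene.

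**Figure D2:**
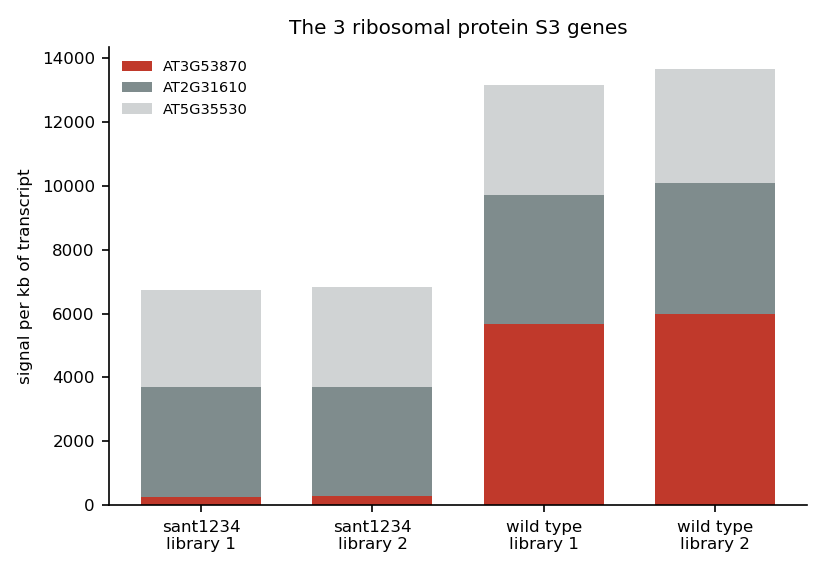
Signal per kb of transcript (vertical axis) of the 3 ribosomal protein S3 genes, stacked, in each of the 2 sant1234 and 2 wild-type libraries. AT3G53870 (red) makes up 3.9% and 4.07% of the stack in sant1234 and 43.0% and 43.7% in the wild type.

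Among all genes annotated as ribosomal proteins, a list whose wording was chosen after the values were seen, 294 were tested, 65 were lower (22.1%, against 11.3% of all genes) and 4 higher (1.36%). Their median difference was only -0.1. Compared with the other mutants 13 of the 294 were higher and 4 lower, over backgrounds of 4.01% and 4.2% of all genes. The count of 65 was unstable: it was 31 with quantile normalization and 37 with DESeq2, and 35, 17, 27 and 33 without sant1234 library 1, sant1234 library 2, wild-type library 1 and wild-type library 2.

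The largest differences were ranked among genes that passed with a mean of at least 50 over the 4 libraries. The 12 largest upward ones included a VQ-motif gene, a flowering repressor, a glycosyltransferase and several transcription factors. AT1G17147, a VQ motif-containing protein, had 125 and 137 in sant1234 and 12.9 and 16.0 in the wild type (3.10 ± 0.23, adjusted p = 3.9e-06). AT1G05675, a UDP-glycosyltransferase, had 162 and 228 in sant1234 and 19.9 and 37.0 in the wild type (2.78). NAC044, a NAC transcription factor, had 83.7 and 85.7 in sant1234 and 17.9 and 16.0 in the wild type (2.26). All of these were also higher than in the other mutants, by 0.67 (adjusted p = 0.032), 1.43 (adjusted p = 0.0092) and 1.49 (adjusted p = 0.00064). ABR1, an AP2/ERF factor known as a repressor of abscisic acid responses, had 111 and 77.7 in sant1234 and 14.9 and 27.0 in the wild type (2.15, adjusted p = 0.0026). For ABR1 the difference from the other mutants did not pass (0.91, adjusted p = 0.095). AT1G69890, a DUF569 protein, had 416 and 405 in sant1234 and 89.5 and 108 in the wild type (2.05). AT1G62420, a DUF506 protein, had 250 and 198 in sant1234 and 51.7 and 58.9 in the wild type (1.99).

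Many jasmonate genes were higher in sant1234. Jasmonate is made from plastid lipids by lipoxygenases, allene oxide synthase and cyclase, and a peroxisomal reductase and β-oxidation. Its conjugate with isoleucine binds the receptor COI1, which leads to degradation of the JAZ repressors and frees MYC transcription factors, and the JAZ genes are themselves induced by the hormone. Over 4 lists covering synthesis, signalling, catabolism and outputs, 26 of 50 tested genes were higher in sant1234 (52.0%, against 8.53% of all genes) and 3 were lower. Their median difference was 0.53, against -0.0046 over all genes. Relative to the other mutants, 17 of the 50 were higher and 3 lower, over backgrounds of 4.01% and 4.2% of all genes.

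In synthesis, 10 of 13 genes were higher (76.9%, against 8.53% of all genes). The 13-lipoxygenase LOX4 had 1048 and 1195 in sant1234 and 266 and 313 in the wild type (1.95 ± 0.15, adjusted p = 3.9e-06). LOX3, which acts at the same step, had 704 and 772 in sant1234 and 267 and 238 in the wild type (1.54 ± 0.15, adjusted p = 2.1e-05). The groups lay far apart for both lipoxygenases. OPR3, the reductase of the intermediate OPDA, had 1446 and 1416 in sant1234 and 595 and 685 in the wild type (1.16 ± 0.12). OPCL1, which activates the product of OPR3 for β-oxidation, had 1587 and 1522 in sant1234 and 775 and 768 in the wild type (1.01 ± 0.09). Each of these 4 genes was also higher than in the other mutants, by 0.43 to 1.02. The β-oxidation gene ACX1 went the other way, with 3039 and 3021 in sant1234 and 3591 and 3833 in the wild type (-0.29, adjusted p = 0.0053; -0.25 and 0.057 without wild-type library 2). LOX2, the most read of the listed lipoxygenases, had 8614 and 7783 in sant1234 and 8214 and 6639 in the wild type and did not pass (adjusted p = 0.64).

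In signalling, 10 of 17 genes were higher (58.8%, against 8.53% of all genes), 9 of them JAZ repressor genes. The remaining one was ORA47, an AP2/ERF factor known to activate jasmonate synthesis genes, with 594 and 530 in sant1234 and 86.4 and 139 in the wild type (2.35 ± 0.36, adjusted p = 0.00054). JAZ5 had 266 and 217 in sant1234 and 80.5 and 90.9 in the wild type (1.48 ± 0.21). JAZ10 had 222 and 220 in sant1234 and 109 and 114 in the wild type (0.98 ± 0.15). ORA47, JAZ5 and JAZ10 were each higher than in the other mutants too, by 1.27 (adjusted p = 0.012), 0.75 (adjusted p = 0.011) and 0.59 (adjusted p = 0.0078). JAZ3 had 1147 and 1199 in sant1234 and 796 and 815 in the wild type (0.54), and its difference from the other mutants did not pass (0.15, adjusted p = 0.16). The activator MYC4 was lower, with 412 and 482 in sant1234 and 658 and 643 in the wild type (-0.55 ± 0.08, adjusted p = 0.00052). The receptor gene COI1 was slightly lower, with 739 and 745 in sant1234 and 850 and 900 in the wild type (-0.24, adjusted p = 0.0051; 0.078 with DESeq2, and -0.2 and 0.058 without wild-type library 2). MYC2 was listed at 0 in all 16 libraries and was not analysed here.

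Of 9 catabolism genes 2 were higher (22.2%, against 8.53% of all genes). ILL6, a hydrolase that cleaves the isoleucine conjugate, had 972 and 1034 in sant1234 and 406 and 504 in the wild type (1.15 ± 0.16). CYP94C1, which oxidises the conjugate, had 265 and 256 in sant1234 and 159 and 191 in the wild type (0.58, adjusted p = 0.012). The call of CYP94C1 was lost without sant1234 library 1 (0.55, adjusted p = 0.073), sant1234 library 2 (0.6, adjusted p = 0.056) or wild-type library 1 (0.45, adjusted p = 0.11).

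Of 11 output genes 4 were higher, and 2 without sant1234 library 2 or wild-type library 2. The 4 of 11 were 36.4%, against 8.53% of all genes. VSP2, a vegetative storage protein and a marker of the MYC branch, had 2050 and 1608 in sant1234 and 1022 and 771 in the wild type (1.03 ± 0.21, adjusted p = 0.0031). CLH1, a chlorophyllase, had 1197 and 1276 in sant1234 and 774 and 674 in the wild type (0.77 ± 0.09). VSP1 had 364 and 541 in sant1234 and 231 and 197 in the wild type (1.05, adjusted p = 0.027), and its call was lost without sant1234 library 2 (0.77, adjusted p = 0.22), wild-type library 1 (1.17, adjusted p = 0.067) or wild-type library 2 (0.94, adjusted p = 0.14). The chitinase gene CHI-B had 670 and 884 in sant1234 and 606 and 503 in the wild type (0.48, adjusted p = 0.023), lost without sant1234 library 2 (0.28, adjusted p = 0.25) or wild-type library 2 (0.35, adjusted p = 0.18). Of these 4 genes, CLH1 was higher than in the other mutants (0.57, adjusted p = 0.00025). The defensin gene PDF1.2 had 107 and 296 in sant1234 and 71.6 and 48.0 in the wild type and did not pass (adjusted p = 0.086). Its close copies can share reads of 50 bp, so single PDF1.2 values are uncertain.

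Genes for ethylene response factors, AP2/ERF proteins that act in ethylene, jasmonate and stress responses, were higher in 8 of 10 tested members (80.0%, against 8.53% of all genes), with a median of 1.08. ERF4 had 1833 and 1683 in sant1234 and 750 and 979 in the wild type (1.03 ± 0.12). ERF11, a repressor like ERF4, had 227 and 263 in sant1234 and 81.5 and 78.9 in the wild type (1.60 ± 0.24). ERF6 had 379 and 384 in sant1234 and 132 and 166 in the wild type (1.36 ± 0.24). ERF2 had 911 and 842 in sant1234 and 434 and 490 in the wild type (0.92 ± 0.16). ERF6 and ERF2 are known as activators. Of the 10 genes, 0 were higher and 0 lower than in the other mutants, whose mean ERF11 signal ran from 48.5 in arid14 to 401 in hda19.

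Wound and touch genes, induced within minutes by handling and wounding, were higher in 4 of 11 members (36.4%, against 8.53% of all genes). WRKY40, a defence transcription factor, had 1081 and 988 in sant1234 and 283 and 400 in the wild type (1.62 ± 0.24). WRKY33 had 2523 and 2556 in sant1234 and 965 and 1210 in the wild type (1.23 ± 0.16). TCH3, a calmodulin-like protein, had 4339 and 3868 in sant1234 and 2487 and 2714 in the wild type (0.66 ± 0.13). CML38, of the same family, had 230 and 192 in sant1234 and 126 and 101 in the wild type (0.89, adjusted p = 0.04), and without any 1 of the 4 libraries its adjusted p was 0.068 to 0.2. WRKY53, chosen after its values were seen, had 306 and 405 in sant1234 and 77.5 and 116 in the wild type (1.88, adjusted p = 0.00081). The touch gene TCH4 had 8012 and 5178 in sant1234 and 9538 and 9952 in the wild type, and did not pass (-0.6, adjusted p = 0.14). None of the 11 listed genes passed against the other mutants. The part of handling before harvest in the jasmonate values above was not tested.

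To show the promoter letters beside these values, 3 genes that rose and have a G-box (CACGTG, a motif bound by MYC factors) are shown. The 300 bases before the annotated start of each gene are printed 5′ to 3′ on the gene's strand, with every G-box in capitals. They come from chr3:6119407-6119706 (plus strand, JAZ3), chr3:5121003-5121302 (plus strand, ERF4) and chr5:19172957-19173256 (minus strand, ERF2) of RefSeq TAIR10.1.
JAZ3: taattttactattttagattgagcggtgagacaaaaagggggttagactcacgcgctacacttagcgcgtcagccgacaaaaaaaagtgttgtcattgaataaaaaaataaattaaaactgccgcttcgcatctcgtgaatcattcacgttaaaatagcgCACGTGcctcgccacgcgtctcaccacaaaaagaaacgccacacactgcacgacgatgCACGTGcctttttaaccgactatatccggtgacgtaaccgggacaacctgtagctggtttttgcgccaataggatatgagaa
ERF4: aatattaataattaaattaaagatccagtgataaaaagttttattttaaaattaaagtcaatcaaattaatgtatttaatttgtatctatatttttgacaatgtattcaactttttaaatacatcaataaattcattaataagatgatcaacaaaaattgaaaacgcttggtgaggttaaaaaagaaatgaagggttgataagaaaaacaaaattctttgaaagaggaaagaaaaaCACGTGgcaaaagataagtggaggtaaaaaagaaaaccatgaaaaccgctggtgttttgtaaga
ERF2: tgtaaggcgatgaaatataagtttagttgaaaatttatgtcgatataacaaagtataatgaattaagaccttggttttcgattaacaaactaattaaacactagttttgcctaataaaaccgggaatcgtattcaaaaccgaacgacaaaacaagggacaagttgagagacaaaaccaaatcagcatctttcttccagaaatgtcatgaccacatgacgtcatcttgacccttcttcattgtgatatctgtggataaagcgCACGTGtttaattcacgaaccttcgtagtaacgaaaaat
The G-box begins 140 and 82 bases before the gene start in JAZ3, 64 in ERF4 and 39 in ERF2. It was present in 4 of 18 windows of the jasmonate signalling list (22.2%), in 4 of 11 of the ethylene response factor list (36.4%), in 2 of 14 of the jasmonate synthesis list (14.3%) and in 1945 of 27443 windows of all genes (7.09%). The jasmonate catabolism list had it in 0 of 9 windows, and the jasmonate and ethylene output list in 0 of 11. Of the genes with values above, LOX4, LOX3, OPR3, OPCL1, ORA47, JAZ5, JAZ10, ERF11 and ERF6 also rose and lack it in this window. ACX1, which fell, has it. Among lists of other pathways, iron deficiency had it in 6 of 13 windows (46.2%) and the circadian clock in 8 of 22 (36.4%). Over all lists the share ran from 0% to 46.2%. The motif reads the same on both strands, and where a T follows it overlaps the abscisic acid motif core ACGTGT. A match describes letters only.

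**Figure D3:**
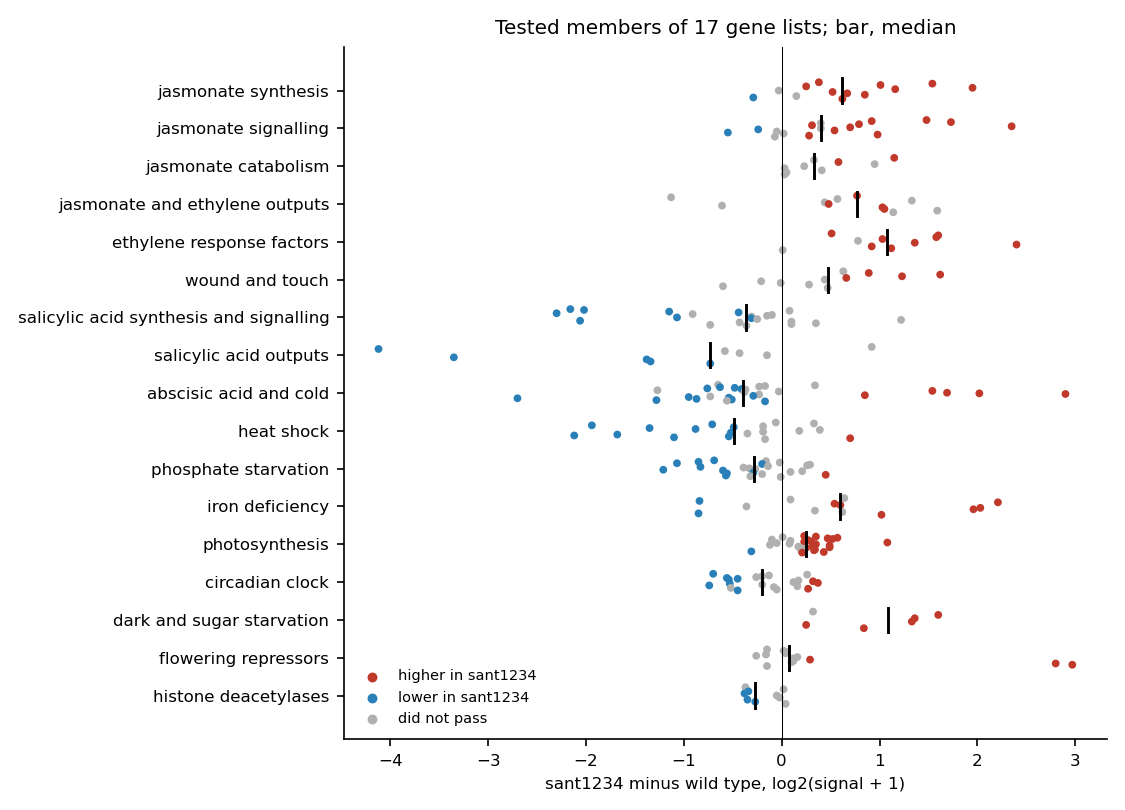
Difference between sant1234 and wild type (log2(signal + 1), horizontal axis) for each tested member of 17 gene lists, with the list's median as a bar. Red members were higher in sant1234, blue members lower, and grey members did not pass; the jasmonate, ethylene, and dark and sugar lists lie mainly right of 0, and the salicylic acid, heat shock and phosphate lists mainly left.

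Part of the salicylic acid genes were lower in sant1234. Salicylic acid is the hormone of defence against biotrophic pathogens; it is made from isochorismate with the help of the conjugating enzyme PBS3, and is amplified by the pipecolic acid branch of ALD1 and FMO1. Over both lists, 13 of 30 tested genes were lower in sant1234 (43.3%, against 11.3% of all genes) and 0 higher, with a median of -0.44. Against the other mutants 13 of the 30 were lower and 0 higher, over a background of 4.2% lower.

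In synthesis and signalling 8 of 21 genes were lower, and 3, 5 and 2 without sant1234 library 1, sant1234 library 2 and wild-type library 1 (4 with no filter on low values, 5 with DESeq2). The 8 of 21 were 38.1%, against 11.3% of all genes. PBS3 had 42.8 and 54.8 in sant1234 and 189 and 224 in the wild type (-2.06 ± 0.28, adjusted p = 0.00021), and its difference from the other mutants was -1.65 (adjusted p = 0.00051). WRKY70, a transcription factor downstream of the hormone, had 827 and 754 in sant1234 and 1857 and 1486 in the wild type (-1.07 ± 0.22, adjusted p = 0.0036). FMO1, the monooxygenase that makes N-hydroxypipecolic acid, had 14.9 and 17.9 in sant1234 and 94.5 and 50.9 in the wild type (-2.02, adjusted p = 0.0056; -1.58 and 0.065 without wild-type library 1). ALD1, an aminotransferase earlier in that branch, had 4.97 and 14.0 in sant1234 and 60.7 and 34.0 in the wild type (-2.30, adjusted p = 0.024). The call of ALD1 was lost without sant1234 library 1 (-1.63, adjusted p = 0.2) or wild-type library 1 (-1.89, adjusted p = 0.15). The receptor gene NPR1 had 559 and 552 in sant1234 and 533 and 521 in the wild type and did not pass (adjusted p = 0.57).

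Among the 9 output genes, 5 were lower (55.6%, against 11.3% of all genes). PR2, the pathogenesis-related β-1,3-glucanase, had 106 and 116 in sant1234 and 899 and 1436 in the wild type (-3.35 ± 0.46, adjusted p = 0.00024). AIG1, a GTP-binding protein gene induced by avirulent bacteria, had 11.9 and 37.9 in sant1234 and 339 and 447 in the wild type (-4.12 ± 0.53, adjusted p = 0.00015). Both lay far below every wild-type library, at 9.48% and 6.34% of the wild-type mean. DLO1 and DMR6 hydroxylate salicylic acid. DLO1 had 36.9 and 35.9 in sant1234 and 92.5 and 99.9 in the wild type (-1.38 ± 0.25), and DMR6 had 609 and 565 in sant1234 and 1040 and 912 in the wild type (-0.73 ± 0.15). All 4 were also lower than in the other mutants, with differences of -2.7 for PR2, -3.07 for AIG1, -1.09 for DLO1 and -0.62 for DMR6. PR1, the most used marker of the pathway, had 341 and 805 in sant1234 and 896 and 558 in the wild type. Its groups overlapped and it did not pass (-0.43 ± 0.48, adjusted p = 0.57). AT5G10760, an aspartyl protease, and NUDT6, a nudix hydrolase, were among the 12 largest downward differences: AT5G10760 had 47.8 and 38.9 in sant1234 and 230 and 334 in the wild type (-2.65), and NUDT6 had 31.9 and 36.9 in sant1234 and 196 and 239 in the wild type (-2.62).

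**Figure D4:**
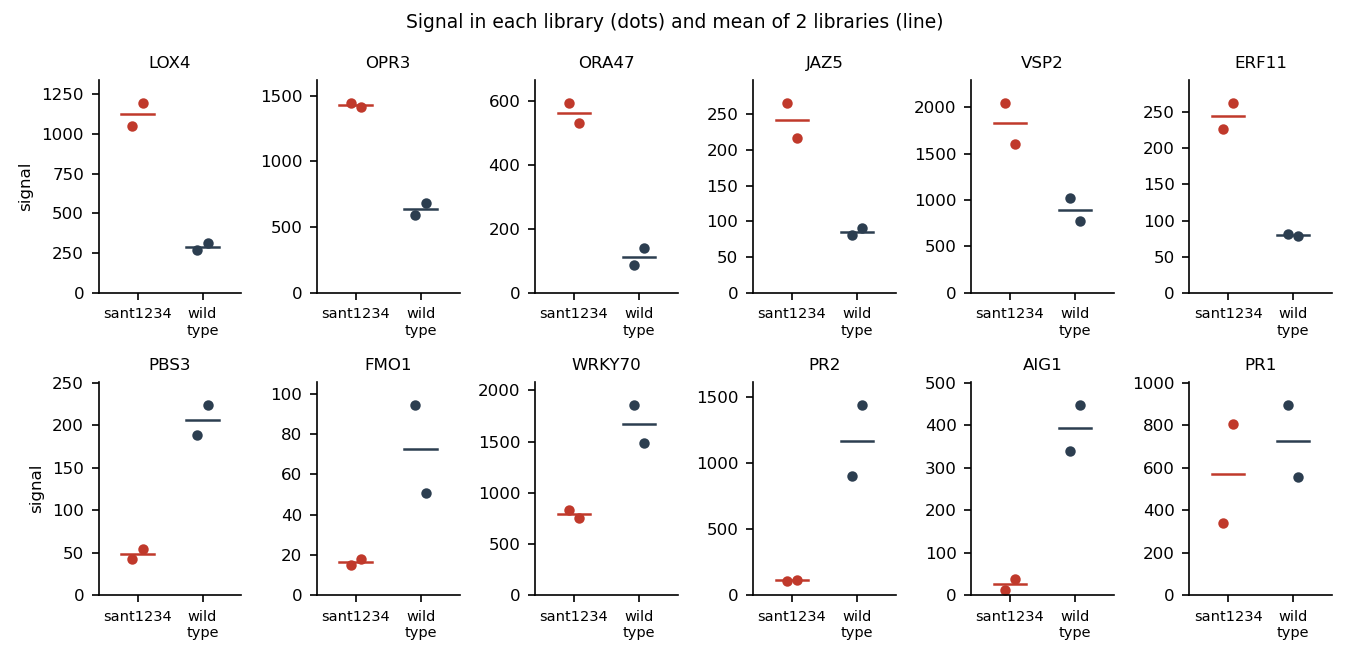
Signal (vertical axes, each from 0) of 6 jasmonate or ethylene genes (upper row) and 6 salicylic acid genes (lower row) in the 2 sant1234 libraries (left, red) and the 2 wild-type libraries (right, dark), with the mean as a line. The groups separate in all panels except PR1, where sant1234 had 341 and 805 and the wild type 896 and 558.

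Some phosphate starvation genes were lower in sant1234. Plants short of phosphate raise SPX feedback genes, acid phosphatases and enzymes that replace phospholipids with galactolipids and sulfolipids. Of 24 genes 10 were lower than in the wild type (41.7%, against 11.3% of all genes) and 1 was higher, with a median of -0.28. Without sant1234 library 1 or wild-type library 1, 5 of the 24 were lower, and 6 with no filter on low values. Against the other mutants 15 of 24 were lower (background 4.2%) and 2 higher (background 4.01%). MGD3, a galactolipid synthase, had 169 and 186 in sant1234 and 393 and 359 in the wild type (-1.07 ± 0.14, adjusted p = 0.00022), and the other mutants averaged 292 to 684. PAP17, an acid phosphatase, had 993 and 1299 in sant1234 and 1798 and 1653 in the wild type (-0.60 ± 0.10), and the other mutants averaged 1590 to 3120. SPX1 had 920 and 1158 in sant1234 and 1562 and 1509 in the wild type (-0.57 ± 0.09), and the other mutants averaged 1520 to 2719. For these 3 genes the sant1234 mean was the lowest of the 8 genotypes. SQD2, a sulfolipid synthase, had 2417 and 2461 in sant1234 and 3462 and 3731 in the wild type (-0.56 ± 0.09), close to 2497 in hda19. SPX4 was the gene that rose, with 294 and 279 in sant1234 and 200 and 221 in the wild type (0.45, adjusted p = 0.013; 0.41 and 0.085 without sant1234 library 1, 0.37 and 0.096 without wild-type library 1).

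Heat shock genes encode chaperones and the factors that induce them. Of 19 tested members, 10 were lower in sant1234 (52.6%, against 11.3% of all genes) and 1 was higher (5.26%, against 8.53%), with a median of -0.49. HSP70 had 1054 and 1043 in sant1234 and 2543 and 2822 in the wild type (-1.35 ± 0.14, adjusted p = 3.5e-05). HSP90.1 had 399 and 408 in sant1234 and 893 and 846 in the wild type (-1.10 ± 0.13). HSFA2, a heat shock factor, had 20.9 and 17.9 in sant1234 and 70.6 and 84.9 in the wild type (-1.94 ± 0.27). In these 3 genes the wild type was the genotype with the highest mean: the other mutants averaged 991 to 1764 for HSP70, 355 to 651 for HSP90.1 and 18.3 to 37.3 for HSFA2. Against the other mutants 2 of 19 members were lower (background 4.2%) and 1 higher (background 4.01%). One of the 2 lower was HSFB1, a repressor of the same family, with 692 and 701 in sant1234, 993 and 1000 in the wild type and 835 to 1808 as means of the other mutants (-0.52 against the wild type, -0.63 against the other mutants, adjusted p = 3.8e-05). HSP18.2 was higher, with 65.7 and 68.8 in sant1234 and 33.8 and 50.0 in the wild type (0.70, adjusted p = 0.026), but its call was lost with DESeq2 (0.69, adjusted p = 0.19) and without sant1234 library 1 (0.73, adjusted p = 0.09), sant1234 library 2 (0.66, adjusted p = 0.13) or wild-type library 1 (0.42, adjusted p = 0.24).

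Abscisic acid and cold genes moved in both directions. Of 28 members 12 were lower (42.9%, against 11.3% of all genes) and 5 higher (17.9%, against 8.53%), with a median of -0.39; 6 were lower without sant1234 library 1 and 5 without wild-type library 2, and 3 were higher without sant1234 library 1 or with DESeq2. NCED3, the limiting enzyme of abscisic acid synthesis, had 625 and 651 in sant1234 and 201 and 237 in the wild type (1.54 ± 0.17, adjusted p = 4.3e-05). RD26, a NAC factor, had 1285 and 1200 in sant1234 and 648 and 729 in the wild type (0.85 ± 0.12). Some genes of dehydration and cold proteins were lower. RD29A had 726 and 826 in sant1234 and 1371 and 1457 in the wild type (-0.87 ± 0.13), and KIN2 had 1053 and 970 in sant1234 and 1862 and 2060 in the wild type (-0.95 ± 0.14). RD22 had 5936 and 6087 in sant1234 and 8676 and 8827 in the wild type (-0.54 ± 0.07). RD29A, KIN2 and RD22 thus lay below the wild type, while NCED3 and RD26 lay above it. GOLS2, a galactinol synthase, had 343 and 400 in sant1234 and 616 and 530 in the wild type (-0.63, adjusted p = 0.004; -0.51 and 0.052 without sant1234 library 1). RD29B had 64.7 and 94.7 in sant1234 and 464 and 566 in the wild type (-2.70 ± 0.67, adjusted p = 0.012), lost without sant1234 library 1 (-2.42, adjusted p = 0.087) or wild-type library 2 (-2.55, adjusted p = 0.069). The cold-response factor CBF1 had 12.9 and 22.9 in sant1234 and 1.99 and 0.999 in the wild type (adjusted p = 0.0013). CBF3 had 9.96 and 7.97 in sant1234 and 1.99 and 0.999 in the wild type (adjusted p = 0.012), lost with edgeR (0.054) and DESeq2 (0.1) and without sant1234 library 1 (0.078) or wild-type library 2 (0.087). The wild-type values rest on 1 or 2 reads, and the CBF genes are close copies that can share reads, so no fold is given. Of the 28 members, 2 were higher and 2 lower than in the other mutants (backgrounds 4.01% and 4.2%).

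The 300 bases before the start of 3 genes that fell and have the motif shown are printed in the same way. HSFA2 (chr2:11135324-11135623, plus strand) has the heat shock element core GAANNTTC in capitals. RD29A (chr5:21240417-21240716, plus strand) and RD29B (chr5:21236721-21237020, plus strand) have the dehydration-responsive core CCGAC in capitals.
HSFA2: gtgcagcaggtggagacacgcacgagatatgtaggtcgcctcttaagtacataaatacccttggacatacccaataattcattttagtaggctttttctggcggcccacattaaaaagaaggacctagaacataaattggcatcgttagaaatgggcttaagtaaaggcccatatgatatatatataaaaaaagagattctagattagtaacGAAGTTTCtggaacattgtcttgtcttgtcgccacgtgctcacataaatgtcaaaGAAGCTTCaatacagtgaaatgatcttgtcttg
RD29A: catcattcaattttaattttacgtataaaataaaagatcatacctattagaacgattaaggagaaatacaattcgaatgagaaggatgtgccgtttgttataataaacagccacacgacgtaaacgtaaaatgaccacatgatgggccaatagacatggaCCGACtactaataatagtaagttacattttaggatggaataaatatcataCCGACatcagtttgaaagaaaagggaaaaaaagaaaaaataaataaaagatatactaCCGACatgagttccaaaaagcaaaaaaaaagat
RD29B: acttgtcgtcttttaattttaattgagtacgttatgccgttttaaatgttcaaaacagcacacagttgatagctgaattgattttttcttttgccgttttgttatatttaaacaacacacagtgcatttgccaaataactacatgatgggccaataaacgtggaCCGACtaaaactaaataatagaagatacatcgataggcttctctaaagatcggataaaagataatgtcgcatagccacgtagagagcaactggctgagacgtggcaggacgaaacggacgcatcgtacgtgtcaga
The heat shock core begins 88 and 33 bases before the HSFA2 start, and was found on either strand in 8 of 24 windows of the heat shock list (33.3%) and in 3152 of 27443 of all genes (11.5%). The phosphate starvation list had this core as often (8 of 24, 33.3%). Over all lists its share ran from 0% (0 of 10 deacetylase windows) to 66.7% (2 of 3 ribosomal protein S3 windows). The CCGAC core begins 140, 90 and 33 bases before the RD29A start and 136 bases before that of RD29B. It was found in 9 of 28 windows of the abscisic acid and cold list (32.1%) and in 3815 of all genes (13.9%). Of the genes with values above, HSP90.1 and GOLS2 also fell and have the core of their list. HSP70, HSFB1, KIN2 and RD22 fell and lack it in this window, and RD26 rose and has CCGAC. Over all lists the share of CCGAC ran from 0% (0 of 10 deacetylase windows) to 33.3%, as in flowering repressors (5 of 15) and cell cycle genes (3 of 9). These matches describe letters only.

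LEA7 and AT3G17520 are annotated as late embryogenesis abundant proteins of dehydration tolerance. They were among the 12 largest downward differences of genes with a mean of at least 50 but were unstable. Genes annotated as late embryogenesis abundant did not fall as a group. Of 63 tested, 8 were higher and 8 lower (12.7% each, against 8.53% and 11.3% of all genes). Their median was 0.15, with 41 positive and 22 negative differences. LEA7 had 68.7 and 67.8 in sant1234 and 590 and 948 in the wild type (-3.44 ± 1.07, adjusted p = 0.036). AT3G17520 had 28.9 and 24.9 in sant1234 and 151 and 163 in the wild type (-2.50 ± 0.81, adjusted p = 0.042). Without any 1 of the 4 libraries the adjusted p was 0.085 to 0.16 for LEA7 and 0.13 to 0.16 for AT3G17520. LBD26, a LOB domain protein, and AT5G24200, a hydrolase, kept theirs: LBD26 had 5.97 and 14.0 in sant1234 and 93.4 and 120 in the wild type (-3.39 ± 0.32), and AT5G24200 had 6.97 and 14.0 in sant1234 and 81.5 and 134 in the wild type (-3.27 ± 0.44). AT3G01345, an uncharacterized protein, had 9.96 and 14.0 in sant1234 and 97.1 and 1193 in the wild type (-4.74 ± 0.95, adjusted p = 0.0034; -2.94 and 0.04 without wild-type library 2). The wild-type libraries of this gene differed from each other by more than the nearest of them did from sant1234, and the hda6 libraries had 4455 and 4193.

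Photosynthesis genes were higher in 18 of 29 tested members (62.1%, against 8.53% of all genes), with 1 lower (3.45%, against 11.3%) and a median of 0.25. Without sant1234 library 1, sant1234 library 2, wild-type library 1 and wild-type library 2, 9, 11, 11 and 9 members were higher. LHCB1.4, an antenna protein of photosystem II, had 16092 and 13763 in sant1234 and 8052 and 6172 in the wild type (1.08 ± 0.14). LHCA1, of the photosystem I antenna, had 84483 and 82755 in sant1234 and 58986 and 59719 in the wild type (0.49 ± 0.07). LHCB2.3 had 23456 and 21948 in sant1234 and 17209 and 15120 in the wild type (0.49 ± 0.08), and LHCB1.2 had 80952 and 77940 in sant1234 and 56441 and 50807 in the wild type (0.57 ± 0.10). The LHCB1 genes are near-identical and share reads, so their single values are uncertain, and LHCB1.5 was listed at 0 in all libraries. RBCS1B, a small subunit of Rubisco, was lower, with 11554 and 11675 in sant1234 and 14501 and 14220 in the wild type (-0.31, adjusted p = 0.014), and without any 1 of the 4 libraries its adjusted p was 0.054 to 0.076. Against the other mutants 3 of 29 members were higher (background 4.01%) and 0 lower (background 4.2%).

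Dark and sugar starvation genes, which leaves induce when carbon is short, were higher in 5 of 6 members (83.3%, against 8.53% of all genes), with a median of 1.09. ASN1, an asparagine synthetase, had 11705 and 12688 in sant1234 and 3697 and 4356 in the wild type (1.60 ± 0.20, adjusted p = 0.00011). SEN1 had 3737 and 4543 in sant1234 and 1363 and 1962 in the wild type (1.33 ± 0.18). DIN11 had 121 and 144 in sant1234 and 52.7 and 49.0 in the wild type (1.36 ± 0.24), and DIN10 had 13844 and 12728 in sant1234 and 7073 and 7767 in the wild type (0.84 ± 0.15). Of the 6 members 1 was higher (background 4.01%) than in the other mutants, in which ASN1 averaged 6487 to 21417.

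Clock genes differed in both directions. Of 21 tested members 7 were lower (33.3%, against 11.3% of all genes) and 3 higher (14.3%, against 8.53%), with a median of -0.20. The morning genes LHY and CCA1 fell. LHY had 4118 and 4289 in sant1234 and 6658 and 7031 in the wild type (-0.70 ± 0.06, adjusted p = 5.7e-06), and CCA1 had 5178 and 5001 in sant1234 and 6706 and 7167 in the wild type (-0.45 ± 0.07). LNK1 had 2029 and 2018 in sant1234 and 2776 and 2768 in the wild type (-0.45), and RVE8 had 1302 and 1359 in sant1234 and 1850 and 2014 in the wild type (-0.54). The 3 members that rose were PRR7, CDF3 and TOC1. PRR7 had 1257 and 1297 in sant1234 and 971 and 1006 in the wild type (0.37 ± 0.07), and CDF3 had 1468 and 1531 in sant1234 and 1155 and 1240 in the wild type (0.32 ± 0.07). TOC1, an evening gene, had 321 and 304 in sant1234 and 264 and 252 in the wild type (0.27, adjusted p = 0.033), and without any 1 of the 4 libraries its adjusted p was 0.072 to 0.18. Against the other mutants 1 of 21 was higher (background 4.01%) and 1 lower (background 4.2%). The labels give no hour of harvest, and its part in the photosynthesis, starvation and cold values above was not tested.

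Iron deficiency genes were higher in 6 of 13 members (46.2%, against 8.53% of all genes) and lower in 2 (15.4%, against 11.3%), with a median of 0.60. In the contrast with the other mutants 7 were higher and 2 lower, over backgrounds of 4.01% and 4.2%. Without sant1234 library 1, 3 were higher and 1 lower than in the wild type, and without wild-type library 2, 1 higher and 1 lower. BHLH38, BHLH39 and BHLH100 encode transcription factors that turn on iron uptake. BHLH38 had 573 and 485 in sant1234 and 212 and 77.9 in the wild type (2.03 ± 0.46, adjusted p = 0.0069). BHLH39 had 532 and 447 in sant1234 and 220 and 69.9 in the wild type (1.96 ± 0.42, adjusted p = 0.0048). BHLH100 had 730 and 592 in sant1234 and 277 and 71.9 in the wild type (2.21 ± 0.48, adjusted p = 0.0055). The wild-type libraries differed widely from each other in these genes, library 2 being the lower. Without wild-type library 2 the calls were lost: 1.31 and 0.089 for BHLH38, 1.14 and 0.053 for BHLH39, and 1.25 and 0.06 for BHLH100, each a log2 difference and its adjusted p. BHLH38 was also lost without sant1234 library 1 (1.91, adjusted p = 0.054). Against the other mutants, which averaged 31.3 to 287 for BHLH38, the differences were 2.34 (adjusted p = 0.0014) for BHLH38, 1.99 (adjusted p = 0.0021) for BHLH39 and 2.07 (adjusted p = 0.0041) for BHLH100. That contrast holds no wild-type library.

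Other iron genes varied less between libraries. BTS, a ubiquitin ligase that limits the iron response, had 4396 and 3915 in sant1234 and 3176 and 2553 in the wild type (0.54 ± 0.10). The ferritin gene FER4, which stores iron, had 224 and 217 in sant1234 and 367 and 430 in the wild type (-0.84 ± 0.12). FER1 had 1497 and 1840 in sant1234 and 2718 and 3290 in the wild type (-0.85, adjusted p = 0.0076), lost without sant1234 library 1 (-0.7, adjusted p = 0.08) or wild-type library 2 (-0.71, adjusted p = 0.072). PYE, a transcription factor, had 355 and 285 in sant1234 and 237 and 186 in the wild type (0.60, adjusted p = 0.0066), lost without the same libraries (0.44 and 0.087; 0.42 and 0.082). The transporter gene IRT1, which takes up iron in roots, had 483 and 499 in sant1234 and 384 and 267 in the wild type and did not pass (adjusted p = 0.35).

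Of the flowering repressors, 3 of 14 tested were higher (21.4%, against 8.53% of all genes) and 0 lower, with a median of 0.07, so the difference lay in a few genes. MAF5, a MADS-box repressor of the FLC family, had 103 and 97.7 in sant1234 and 10.9 and 13.0 in the wild type (2.97 ± 0.30, adjusted p = 3.2e-05). Its neighbour MAF4 had 86.7 and 64.8 in sant1234 and 10.9 and 8.99 in the wild type (2.80 ± 0.40, adjusted p = 0.0003). The genes lie next to each other on chromosome 5, MAF4 at 25992193 to 25996202 and MAF5 at 25997504 to 26002619 (RefSeq TAIR10.1). The other members of that cluster differed little: MAF2 had 458 and 473 in sant1234 and 418 and 440 in the wild type, and MAF3 had 196 and 192 in sant1234 and 173 and 191 in the wild type, neither passing. FLC itself had 5.98 and 6.98 in sant1234 and 3.98 and 3 in the wild type, too low to be tested. MAF5 and MAF4 were higher than in the other mutants by 1.89 (adjusted p = 0.00037) and 1.87 (adjusted p = 0.0022), though hda6 averaged 81.2 for MAF5 and 92.6 for MAF4, and rxt3 averaged 93.1 for MAF5. TOE2, a repressor of the AP2 family, had 400 and 406 in sant1234 and 317 and 343 in the wild type (0.29, adjusted p = 0.02), lost with DESeq2 (0.14) and without sant1234 library 1 (0.078), sant1234 library 2 (0.1) or wild-type library 1 (0.14), as adjusted p. None of 8 tested flowering activators passed: FT had 12 and 9.97 in sant1234 and 15.9 and 16.0 in the wild type, and SOC1 had 1042 and 945 in sant1234 and 1074 and 1052 in the wild type.

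The genes for the deacetylases themselves differed little. HDA6 had 427 and 451 in sant1234 and 430 and 425 in the wild type (0.04 ± 0.08, adjusted p = 0.79). HDA19 had 2135 and 2041 in sant1234 and 2088 and 2222 in the wild type (-0.05 ± 0.30, adjusted p = 0.94). The SE of the fit takes in the spread within all 8 genotypes, the hda19 mutant among them, and not only that of the libraries shown. Of 9 tested deacetylase genes 4 were lower by a small amount (44.4%, against 11.3% of all genes), and 3 of these 4 lost their call under at least 1 alternative. HD2B, of the plant-specific HD2 type, had 2480 and 2439 in sant1234 and 3177 and 3087 in the wild type (-0.35 ± 0.06). HD2A, of the same type, had 720 and 691 in sant1234 and 972 and 870 in the wild type (-0.38, adjusted p = 0.007; -0.35 and 0.059 without sant1234 library 2, -0.3 and 0.075 without wild-type library 1). HDA9, an RPD3-type enzyme, had 230 and 222 in sant1234 and 297 and 276 in the wild type (-0.34, adjusted p = 0.011; 0.15 with DESeq2, -0.31 and 0.078, and -0.28 and 0.091, without the same libraries). HDA5 had 659 and 642 in sant1234 and 788 and 785 in the wild type (-0.27, adjusted p = 0.0063; 0.054 with DESeq2, and -0.25 and 0.055 without sant1234 library 2). Of 19 subunit genes of deacetylase complexes 3 were lower (15.8%, near the 11.3% of all genes) and 0 higher, with a median of -0.06. They were SNL6 and SNL2, SIN3-like scaffolds, and FVE, a histone-binding WD40 protein, with differences of -0.27, -0.19 and -0.21. Each of these 3 lost its call with DESeq2 (adjusted p 0.1 to 0.14) and without at least 2 of the 4 libraries: the adjusted p was 0.16 and 0.13 for SNL6 without sant1234 library 2 and wild-type library 2, 0.13, 0.18 and 0.32 for SNL2 without sant1234 library 1, sant1234 library 2 and wild-type library 2, and 0.052 to 0.15 for FVE without any 1 library.

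AT2G47820, annotated as an arginine-glutamic acid dipeptide repeat protein, was looked at after its values were seen. It had 34.9 and 34.9 in sant1234 and 130 and 114 in the wild type (-1.78 ± 0.16, adjusted p = 1.4e-05), and 86.2 to 164 as means of the other mutants (-1.68, adjusted p = 1e-05). The sant1234 libraries were below all 14 others. AT1G09040 and AT1G09050 carry the same annotated product. AT1G09040 had 74.7 and 51.8 in sant1234 and 95.5 and 84.9 in the wild type (-0.53, adjusted p = 0.047), with an adjusted p of 0.24 with DESeq2, 0.068 with edgeR and 0.39 without sant1234 library 2, 0.21 without wild-type library 1 and 0.088 without wild-type library 2. AT1G09050 had 122 and 128 in sant1234 and 94.5 and 89.9 in the wild type (0.43, adjusted p = 0.064). The annotation used does not say whether any of these genes is among the mutated SANT genes.

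Several genes with known epigenetic variation were examined. QQS, a starch-related orphan gene whose level varies between lines with the methylation of its promoter, had 16.9 and 19.9 in sant1234 and 210 and 222 in the wild type (-3.48 ± 0.40, adjusted p = 6.4e-05). The other mutants averaged 35.4 to 58.9 except hda6 at 905, so its mean was below that of the wild type in all mutants but hda6, and lowest in sant1234. ROS1, a DNA demethylase, had 1740 and 1709 in sant1234 and 1072 and 1016 in the wild type (0.72 ± 0.07, adjusted p = 1.5e-05), and 615 to 1667 as means of the other mutants. The sant1234 mean of ROS1 was thus the highest, but it lay close to the mutant mean of 1667. IBM1, a histone demethylase, had 376 and 431 in sant1234 and 484 and 502 in the wild type (-0.29, adjusted p = 0.028), lost with DESeq2 (0.14) and without sant1234 library 1 (0.24), wild-type library 1 (0.075) or wild-type library 2 (0.13), as adjusted p. FWA held at most about 1 read in each of the 4 libraries.

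The contrast with the other mutants was ranked among genes with a mean of at least 50 whose sant1234 and wild-type libraries did not overlap. Its largest upward difference was in AT5G51530, annotated as a ubiquitin hydrolase-related protein (chromosome 5, 20927069 to 20931886). It had 95.6 and 97.7 in sant1234, 99.5 and 81.9 in hda6 and 12.9 and 12 in the wild type, and the remaining 5 mutants averaged 1.47 to 13.9. The difference was 3.45 (adjusted p = 3.1e-05) against the other mutants and 2.86 ± 0.41 (adjusted p = 0.00031) against the wild type. The gene was thus high in sant1234 and hda6 together. AT1G23935 followed the same order, with 206 and 216 in sant1234, 194 and 173 in hda6 and 80.5 and 85.9 in the wild type, and 23.5 to 70.7 as means elsewhere. AGO3, an Argonaute protein of small RNA silencing, had 238 and 219 in sant1234, 278 and 254 in hda6 and 83.5 and 102 in the wild type, and 16.2 to 90.6 elsewhere. AT4G16940, a TIR-NBS-LRR immune receptor, had 81.7 and 86.7 in sant1234, 77.2 and 83.9 in hda6 and 37.8 and 41.0 in the wild type, and 8.82 to 33.8 elsewhere. AGO3 and AT4G16940 were chosen after their values were seen. Other genes set these mutants apart, as QQS and AT3G01345 were low in sant1234 and high in hda6. Genes that share or break this order were not counted. MRN1, the marneral synthase of a root triterpene pathway, had 550 and 380 in sant1234 and 231 and 366 in the wild type and did not pass against the wild type (0.65, adjusted p = 0.33; 0.05 in a fit of these 2 genotypes). It was high in arid14 (614 and 667) and mbd124 (277 and 515) and low in esant12 (2.09 and 4.06) and hda19 (6.97 and 11.6), and the sant1234 difference from the other mutants was 2.97 (adjusted p = 0.00021).

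**Figure D5:**
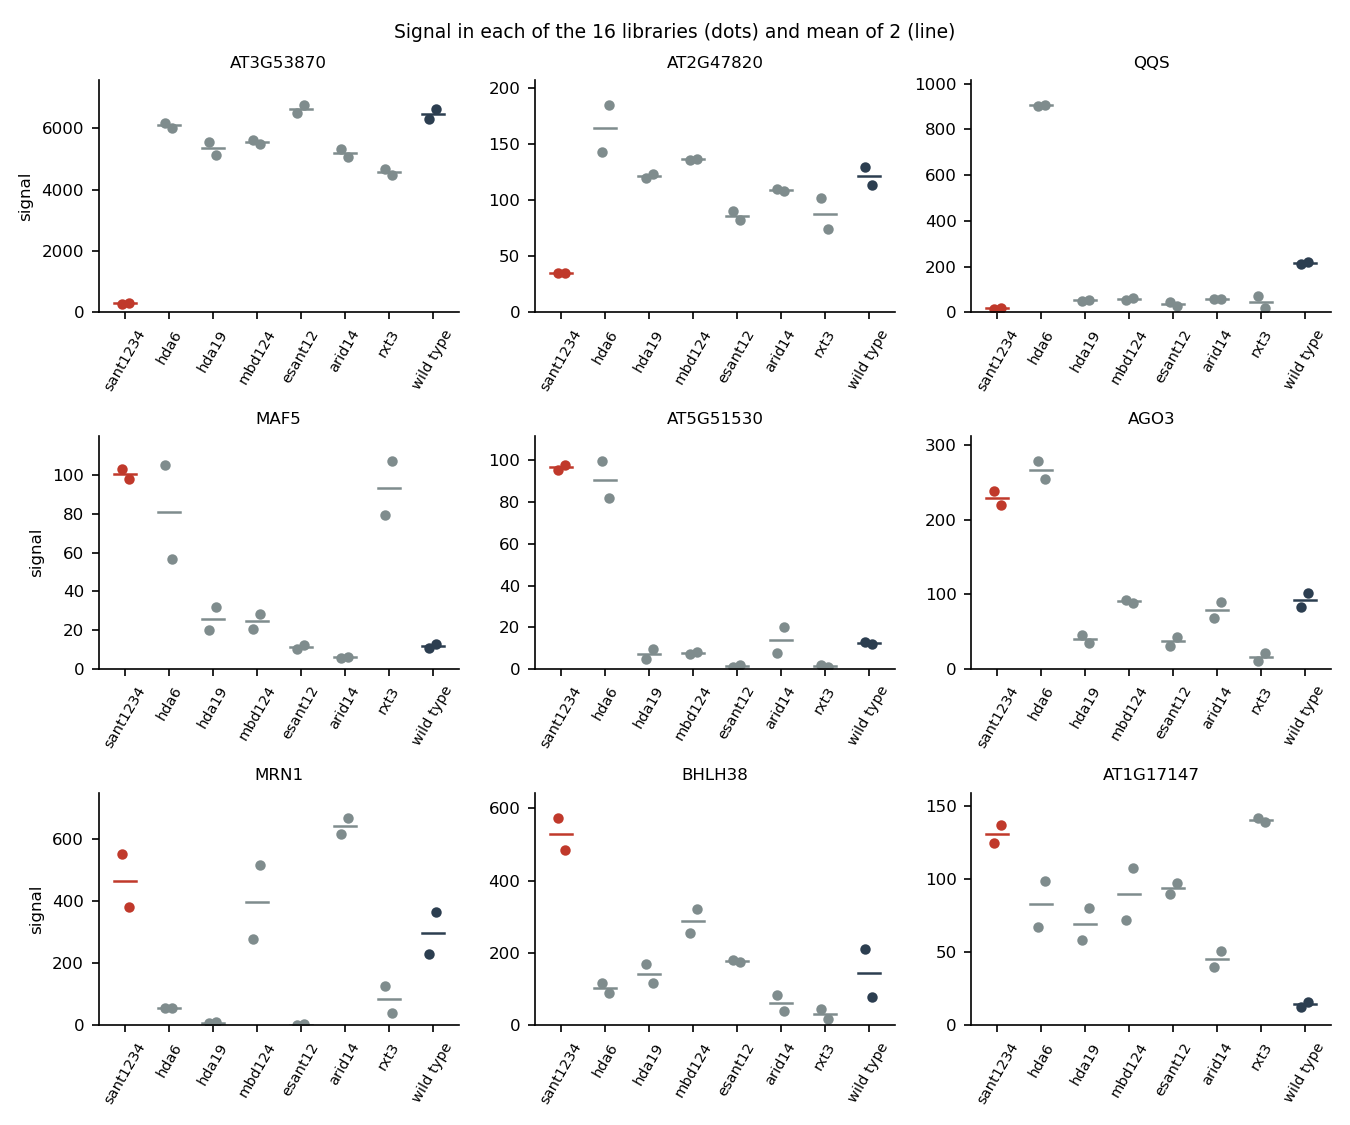
Signal (vertical axes, each from 0) of 9 genes in the 16 libraries, sant1234 at the left in red, the other 6 mutants in grey and the wild type at the right. AT3G53870 and AT2G47820 are low in sant1234 alone, AT5G51530 and AGO3 are high in sant1234 and hda6, and AT1G17147 is lowest in the wild type.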

How the data were processed

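RNA-seq reads of 50 bp from 16 seedling libraries were mapped by the authors with HISAT2 2.1.0 to TAIR10, counted with featureCounts and adjusted with edgeR, per the submitters' processing notes; their options, the strandedness and the gene model release are not given in the sources used here. The deposited signal values are edgeR's scaled pseudo-counts. Whole reads were recovered from 100% of 520768 values (relative tolerance 1e-06), giving 19259579 to 19522197 reads per library, and 5616 of 32548 genes had no read.

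The test was limma 3.58.1 (R 4.3.3) with a trend on log2(signal + 1), fitted to the 8 genotypes at once (residual degrees of freedom 8, prior 6.06), for genes at 10 or more in at least 2 libraries. edgeR 4.0.16 and DESeq2 1.42.0 on the recovered reads, other pseudocounts, filters and scalings, a fit of 2 genotypes, a replicate block and leaving out each library were alternatives. The fit was also run on simulated reads, drawn with the same dispersion for every gene. Those reads cannot show how it behaves on genes of unlike spread.

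Genes named are the 12 largest differences in each direction among genes that passed with a mean of at least 50, up to 4 per direction of each list with at least 2 that passed, the 6 largest against the other mutants, and some added after their values were seen, among them all named members that did not pass. Lists and members were chosen with earlier results of these data known. Promoter windows and coordinates are from RefSeq TAIR10.1, in which all 32548 identifiers were found. All columns were used.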

Additional observations from a re-analysis of the deposited data

How the results depend on the processing

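Under other pseudocounts, filters, scalings, the fit of 2 genotypes and edgeR, 1603 to 2044 genes were higher and 1933 to 2443 lower than in the wild type, against 1779 and 2355; edgeR on the recovered reads called 2044 and 2081. Counts moved by over 1.5 times in 3 cases. DESeq2 called 1146 higher and 1419 lower, with 809 genes left without an adjusted p, and 475 lower than the other mutants (560 higher). A log2 difference of at least 1 left 369 higher and 160 lower than the wild type, and 142 higher and 139 lower than the other mutants. Leaving out 1 library gave 867 to 1177 higher and 1280 to 1446 lower than the wild type, and, without a sant1234 library, 92 to 182 higher and 63 to 272 lower than the other mutants; the lone library is then assumed to vary like the other genotypes. The cause of these moves was not tested beyond the fewer samples. With the replicate block, 1986 genes were higher and 2520 lower than the wild type, and 955 higher and 1010 lower than the other mutants. Same-numbered libraries of sant1234 and the wild type had a correlation of deviations of 0.021 (3 of 28 genotype pairs over 0.1), so the numbers were not taken to pair the samples. The alternatives were run for 133 genes chosen for naming; the text names some further genes and leaves a few of these out. Of the 131 that passed, 84 passed under every alternative that gave them an adjusted p, and none changed sign there. The log2 difference of at least 1 was left out of that tally. Genes under 10 in all but 1 library, such as FLC, were not tested.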

Other observations

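Pigment and glucosinolate genes moved in part. Of 14 anthocyanin and flavonoid genes 4 were higher and 1 lower than in the wild type, 28.6% and 7.14%, against backgrounds of 8.53% and 11.3%. Without sant1234 library 1, sant1234 library 2 and wild-type library 2, 1, 2 and 1 were higher. MYBL2, a repressor of anthocyanin synthesis, had 1557 and 1636 in sant1234 and 902 and 1141 in the wild type (0.65 ± 0.12, adjusted p = 0.0018). The late enzymes DFR (334 and 232 in sant1234, 151 and 70.9 in the wild type) and LDOX (252 and 268 in sant1234, 133 and 61.9 in the wild type) passed at adjusted p = 0.023 and 0.017, but their calls were unstable. The adjusted p of DFR was 0.22 without wild-type library 2 and 0.16 without sant1234 library 1, and that of LDOX was 0.17, 0.07 and 0.091 without wild-type library 2, sant1234 library 1 and sant1234 library 2. TT8, a regulator of the late enzymes, had 28.9 and 22.9 in sant1234 and 8.95 and 9.99 in the wild type (1.35, adjusted p = 0.021), and without any 1 of the 4 libraries its adjusted p was 0.059 to 0.13. FLS1, the flavonol synthase gene that was lower, had 424 and 475 in sant1234 and 803 and 609 in the wild type (-0.64, adjusted p = 0.013), lost without sant1234 library 1 (-0.56, adjusted p = 0.096) or wild-type library 1 (-0.44, adjusted p = 0.13). Of 11 indole glucosinolate and camalexin genes 3 were higher (27.3%). CYP81F2, which modifies indole glucosinolates, had 347 and 352 in sant1234 and 99.4 and 89.9 in the wild type (1.87 ± 0.15, adjusted p = 5e-06). The myrosinase gene PEN2 had 3206 and 3150 in sant1234 and 2011 and 2236 in the wild type (0.58 ± 0.06), and the activator MYB51 had 424 and 452 in sant1234 and 217 and 253 in the wild type (0.90 ± 0.13). Of 14 aliphatic glucosinolate genes 3 were higher (21.4%, against 8.53%) and 1 lower (7.14%, against 11.3%) than in the wild type, with differences of -0.29 to 0.36. All 4 calls were unstable. With DESeq2 the adjusted p was 0.064 for CYP79F2, 0.086 for BCAT4 and 0.066 for MYB28, the lower gene. With no filter on low values it was 0.063 for MAM3. In the contrast with the other mutants 6 of the 14 were higher (background 4.01%) and 0 lower (background 4.2%).

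Of 9 cell cycle genes 1 was higher and 1 lower (11.1% each, near the backgrounds of 8.53% and 11.3%). The higher one, the cyclin gene CYCB1;2, had 173 and 170 in sant1234 and 126 and 104 in the wild type (0.58, adjusted p = 0.017), lost with DESeq2 (0.051) and without sant1234 library 1 (0.085), sant1234 library 2 (0.076) or wild-type library 2 (0.14), as adjusted p. The lower one, the replication gene MCM5, lost its call without any 1 of the 4 libraries (0.061 to 0.19). Of 10 root markers 3 were higher (30%, against 8.53% of all genes), with a median of 0.37, and 2 were higher than in the other mutants (background 4.01%). Without sant1234 library 1, sant1234 library 2 or wild-type library 2, 1 of the 10 was higher. PRP3, a root hair cell wall protein, had 1397 and 1435 in sant1234 and 834 and 994 in the wild type (0.64 ± 0.12, adjusted p = 0.0024). PLT2 and WOX5, of the root stem cell niche, rest on few reads. PLT2 had 11.9 and 16.0 in sant1234 and 6.96 and 4.0 in the wild type (1.23, adjusted p = 0.041), and without sant1234 library 1, sant1234 library 2 and wild-type library 2 its adjusted p was 0.083, 0.21 and 0.24. WOX5 had 14.9 and 16.9 in sant1234 and 6.96 and 4.0 in the wild type (1.42, adjusted p = 0.048), and without any 1 of the 4 libraries its adjusted p was 0.064 to 0.25.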
